A study of Mus musculus with 12 samples.

Results

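The ETS genes Etv6, Spi1, Elf1, Ets1, Ets2, Fli1, Etv3, Etv5 and Elk3 were examined in a map of acetylated lysine 27 of histone H3 (H3K27ac), a mark of active promoters and enhancers, in mouse cortical microglia. All deposited 500 bp regions whose nearest gene, as listed by the authors, is 1 of these 9 genes were taken. These were 280 of 104981 regions and 9 of 18207 genes. Etv6 had 76 regions, Fli1 45, Ets1 35, Elk3 28, Etv3 25, Elf1 and Etv5 20 each, Spi1 18 and Ets2 13. Of the 280 regions, 23 lay within 1000 bp of a transcription start site (TSS), and 37 overlapped the region before them and share reads with it.

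At postnatal day 30, mice were given interleukin-33 (IL-33) or vehicle into the ventricle on 1 side of the brain, and microglia were sorted from cortex 4 h later. H3K27ac was profiled in 4 female mice (numbered 3, 4, 7 and 8) and 4 male mice (numbered 1, 2, 5 and 6), and every library is 1 mouse. Genotype and strain are not given in the labels. The labels give each mouse's sex but not its treatment, so every IL-33 value comes from the authors' deposited table, and mice are compared only by sex.

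ETS proteins share a DNA-binding domain that reads a GGAA core, and family members differ in whether they activate or repress. PU.1, encoded by Spi1, is the lineage factor of macrophages and microglia and marks their enhancers. Etv6, Etv3 and Elk3 encode members known chiefly as repressors, whereas Fli1, Ets1, Ets2, Elf1 and Etv5 encode members known chiefly as activators. IL-33 is a cytokine of the interleukin-1 family whose receptor signals through MyD88 to NF-kappaB and MAP kinases, and several ETS proteins are MAP kinase substrates.

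The female libraries held 2155209 to 4133042 tags and the male libraries 5160915 to 10019606 tags, of which 32.9 to 47.3% lay in the regions. Levels are tags per 500 bp scaled by the authors to 10000000 tags per library, so 1 read is worth 0.998 to 4.64 tags, and a value of 0 allows up to 3 reads. Every pair of libraries of 1 sex differed beyond counting error (chi-square over its degrees of freedom 1.77 to 7.02). All 8 microglial markers had a promoter region, with summed promoter levels of 1209 to 1786 tags in female and 1064 to 1343 tags in male libraries. No promoter region was listed for 3 of 5 border macrophage, 4 of 5 monocyte and neutrophil, 4 of 5 lymphocyte, 3 of 5 endothelial, 3 of 4 astrocyte and 2 of 4 neuron markers. The exceptions with signal were Pecam1 at 64.0 tags, the oligodendrocyte genes Mog at 37.9 tags (2.42 to 92.8 over libraries) and Mbp at 14.1 tags, and Mrc1 at 22.8 tags; their part in the results was not tested. Fewer cells of a type and less signal per cell cannot be told apart in such bulk samples.

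After IL-33, H3K27ac rose at 47 and fell at 4 of the 199 ETS regions with an adjusted p in the list of the authors' deposited table (called at an adjusted p under 0.05). That is 23.6% risen and 2.01% fallen, against 10.2% risen and 7.99% fallen over all 40352 tested regions of the authors' deposited table. The median log2 fold change (IL-33 over vehicle) in the authors' deposited table was 0.39 over the ETS regions and -0.01 over all tested regions. Etv6 carried much of this: without it, 19 of 137 regions rose (13.9%), 2.92% fell and the median in the authors' deposited table was 0.14. Of the other regions, 30 had no adjusted p and 51 were not in the authors' deposited table, 37 of them within 3000 bp of a TSS. No promoter of these genes at a TSS listed by the authors therefore has an IL-33 value.

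By gene, 7 of the 9 held a risen region and 3 of the 9 a fallen region in the authors' deposited table, against 19.4% and 20.9% of the 7838 genes with a tested region. The ETS genes hold 199 tested regions over 9 genes, against 40352 over 7838, so they have more regions per gene and the 2 kinds of share are not alike. Spi1, Ets1 and Fli1 had both, Ets2 and Etv5 neither. Risen ETS regions ranged from 0.70 to 3.58 in log2 fold change per the authors' deposited table, and 38 of the 47 changed by at least 1. The 4 falls in that authors' deposited table ranged from -0.94 to -0.47, and none reached a size of 1. By the peak set a region was found in, the authors' deposited table lists rises at 13 of 44 ETS regions found in the IL-33 set alone (background 22.3%), at 34 of 148 found in both sets (8.1%) and at 0 of 7 found in the vehicle set alone (4.25%). It lists falls, in the same order, at 0 of 44 (3.19%), 3 of 148 (8.51%) and 1 of 7 (14.1%), again per the authors' deposited table. Peak sets and calls come from the same experiment, so a peak set is no independent evidence for a call.

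**Figure D1:**
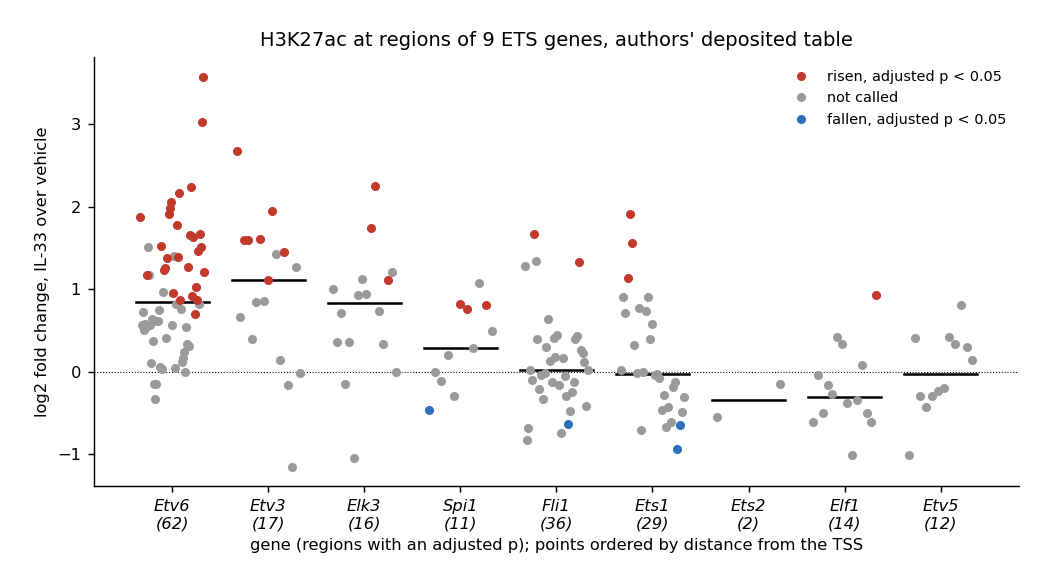
Log2 fold change of H3K27ac (IL-33 over vehicle, authors' deposited table) at the 199 tested regions of 9 ETS genes; each point is a region, ordered within a gene by distance from the TSS, red risen, blue fallen, grey not called, and the black bars are medians. Etv6 has 28 red points and no blue one, and Ets2 and Etv5 have no coloured point.

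Etv6, also called Tel, encodes a repressor with a pointed oligomerisation domain. It had 28 risen and 0 fallen of 62 tested regions in the authors' deposited table (45.2%), which ranked 26 of the 345 genes with at least 20 tested regions (median share risen 8.70%). Per the authors' deposited table, 58 of the 62 regions had a log2 fold change above 0, with a median of 0.84. The tested regions all lay downstream of the TSS, in introns 1 to 3 of the gene on chromosome 6. The share risen differed along it: the authors' deposited table lists 2 of 12 regions in intron 1, 9 of 24 in intron 2 and 17 of 26 in intron 3.

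The rises came in blocks. Some of these regions overlap and share reads, and 20 of the 28 rises remained when overlapping regions were left out. Counted in 30 kb steps downstream, a step chosen after the values were seen, the authors' deposited table has 2 rises of 11 regions up to 30 kb, 0 of 9 to 60 kb, 8 of 13 to 90 kb, 4 of 10 to 120 kb, 7 of 11 to 150 kb and 7 of 8 to 180 kb. The strongest Etv6 region, in intron 3 at 135.8 kb (chr6:134171276-134171776, mm10), had 458, 607, 94.8 and 92.8 tags in female mice 3, 4, 7 and 8, and 415, 297, 103 and 58.1 tags in male mice 1, 2, 5 and 6. The sexes overlapped, and within each sex 2 mice lay far above the other 2. No ETS region of the authors' deposited table had a smaller adjusted p (7.63e-27), at a log2 fold change of 2.24 with SE 0.195 and log2 group values of 7.75 for IL-33 and 5.43 for vehicle.

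The largest change was at 173.2 kb (chr6:134208612-134209112), a weak region with 109, 94.4, 2.79 and 9.28 tags in female mice 3, 4, 7 and 8, and 51.9, 27.5, 0 and 3.88 tags in male mice 1, 2, 5 and 6. Again 2 mice of each sex stood above the others. Here the authors' deposited table gives 3.58 (SE 0.523, adjusted p = 9.11e-10), with group values of 4.997 for IL-33 and 1.28 for vehicle. Next to these, the authors' deposited table gives 3.02 at 172.3 kb, 2.17 at 105.8 kb and 2.05 at 84.6 kb.

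A strong signal did not go with a rise everywhere in Etv6. The pair at 116.4 and 117.0 kb averaged 214 and 241 tags over the 8 libraries, the next highest after the 135.8 kb region, yet its log2 fold changes in the authors' deposited table were 0.16 (adjusted p = 0.618) and 0.24 (adjusted p = 0.377). Close to the strongest region, at 136.8 kb, the authors' deposited table gives a rise of 1.63 (adjusted p = 3.78e-14), and at 137.8 kb a smaller one of 0.70 (adjusted p = 0.00407).

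**Figure D2:**
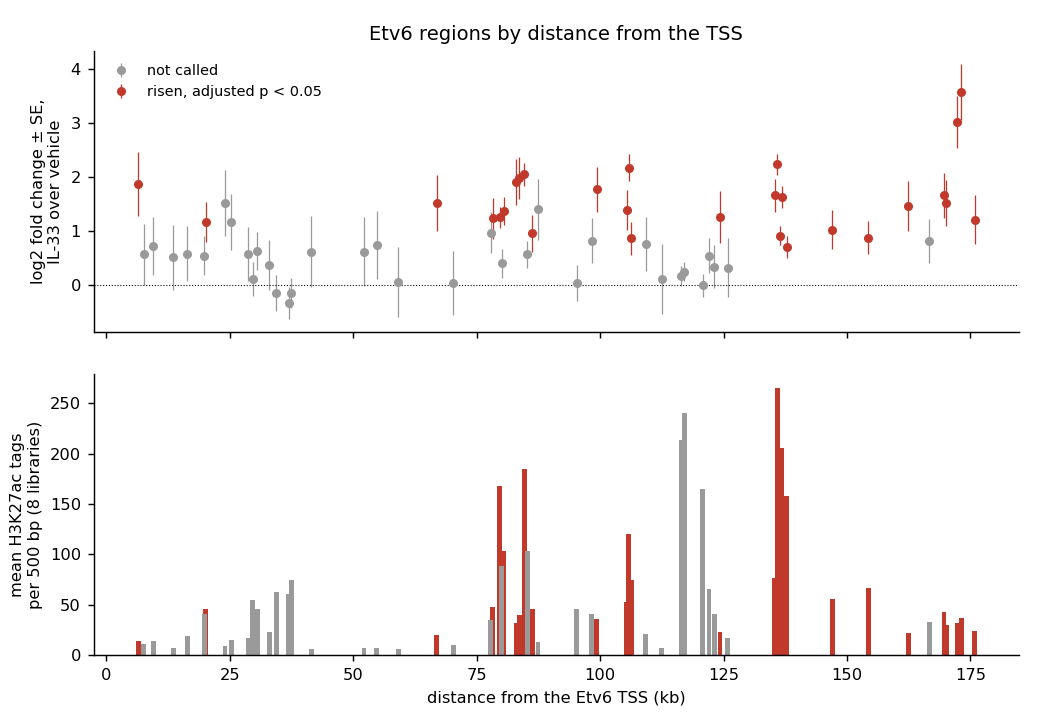
Etv6 regions with an adjusted p in the authors' deposited table, by distance from the TSS in kb; the upper panel gives the log2 fold change ± SE (IL-33 over vehicle), the lower panel the mean tags per 500 bp over 8 libraries, red risen and grey not called. The strong grey bars at 116.4 and 117.0 kb stand between red blocks on both sides, and no region from 30 to 60 kb is red.

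Etv3 encodes an ETS repressor described in differentiating macrophages. It had 7 risen (41.2%) and 0 fallen of 17 tested regions in the authors' deposited table, with a median of 1.11. Over all tested regions 10.2% rose and 7.99% fell. All 7 risen regions lay upstream of the TSS, from -37.5 to -3.57 kb, and the 3 farthest of them fall in intron 11 of the neighbouring gene Fcrl5 and were assigned to Etv3 by distance alone. Those at -26.7 and -26.3 kb overlap and share reads, and 6 rises remained when overlapping regions were left out. The region at -3.57 kb (chr3:87521754-87522254) had 302, 273, 117 and 92.8 tags in female mice 3, 4, 7 and 8, and 165, 163, 73.4 and 40.7 tags in male mice 1, 2, 5 and 6. The sexes overlapped, with female mice 3 and 4 above all others. The region rose by 1.45 in log2 (SE 0.239, adjusted p = 9.27e-08, authors' deposited table). The region next to it, at -4.26 kb, was not called (0.14, adjusted p = 0.761, authors' deposited table). The largest Etv3 change, at -37.5 kb, was 2.67 (SE 0.504, adjusted p = 4.28e-06, authors' deposited table), from group values of 4.54 for IL-33 and 1.52 for vehicle.

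Elk3, or Net, encodes a ternary complex factor that binds with serum response factor and represses until it is phosphorylated. Its 3 risen regions of 16 tested (18.75%, against 10.2% of all tested regions) lay together in intron 2, from 42.6 to 49.7 kb. None fell in the authors' deposited table (7.99% of all tested regions fell). The region at 43.5 kb (chr10:93267420-93267920) had 41.1, 70.2, 2.79 and 4.64 tags in female mice 3, 4, 7 and 8, and 13.97, 21.8, 8.39 and 0 tags in male mice 1, 2, 5 and 6, and the sexes overlapped. It rose by 2.25 in log2 (SE 0.556, adjusted p = 0.000821, authors' deposited table). The other rises were 1.74 at 42.6 kb and 1.11 at 49.7 kb in the authors' deposited table.

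At Spi1, regions a few kb apart went opposite ways. Distances here are from the TSS listed by the authors. The RefSeq gene starts farther upstream, at chr2:91082374, so these regions lie within its span. The region at -13.1 kb, which begins at chr2:91083365, is the closest of them to that start. The upstream part of this gene is known for an element through which PU.1 acts on its own gene; whether any region here is that element was not examined. The strongest region of the family, at -13.1 kb (chr2:91083365-91083865), had 446, 656, 688 and 807 tags in female mice 3, 4, 7 and 8, and 417, 373, 561 and 572 tags in male mice 1, 2, 5 and 6. The sexes overlapped, with female mice 4, 7 and 8 above every male. The region fell by 0.47 in log2 with IL-33 (SE 0.118, adjusted p = 0.00107, authors' deposited table). The next 4 regions, from -12.3 to -10.1 kb, ranged from -0.29 to 0.21 in the authors' deposited table and were not called.

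Closer to the Spi1 TSS listed by the authors the direction was the other one. The region at -9.09 kb (chr2:91087336-91087836) had 114, 225, 92.0 and 139 tags in female mice 3, 4, 7 and 8, and 141, 137, 75.5 and 56.2 tags in male mice 1, 2, 5 and 6. The sexes overlapped, with female mouse 4 highest and male mouse 6 lowest. The region rose by 0.82 (SE 0.236, adjusted p = 0.00516, authors' deposited table), and the regions at -8.69 and -3.89 kb rose by 0.76 (adjusted p = 0.0269) and 0.81 (adjusted p = 0.042) in the same authors' deposited table. The regions at -9.09 and -8.69 kb overlap and share reads, and 2 rises remained when overlapping regions were left out. Between these, the authors' deposited table has regions at -7.45 kb (0.29, adjusted p = 0.535) and -4.67 kb (1.07, adjusted p = 0.0864) that were not called. The rise at -3.89 kb was lost when p-values were adjusted anew over all regions (adjusted p = 0.0569). No Spi1 region reached a log2 fold change of 1 and a call together in the authors' deposited table.

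Ets1, a lymphoid and endothelial activator, had risen and fallen regions at different positions. Its 3 risen regions of 29 tested (10.3%) lay upstream of the TSS listed by the authors, from -19.8 to -10.5 kb. Its 2 fallen ones (6.90%) lay in intron 5, at 39.2 and 39.7 kb, in the authors' deposited table. These shares are near those over all tested regions, 10.2% risen and 7.99% fallen. In RefSeq the gene starts at chr9:32636241, so the risen regions lie within its span. The region at -10.5 kb (chr9:32685323-32685823) had 208, 230, 30.7 and 97.4 tags in female mice 3, 4, 7 and 8, and 140, 112, 44.0 and 56.2 tags in male mice 1, 2, 5 and 6. The sexes overlapped, with female mice 3 and 4 highest and female mouse 7 lowest. The authors' deposited table gives rises of 1.55 here (SE 0.269, adjusted p = 3.81e-07) and of 1.92 at -19.3 kb (SE 0.353, adjusted p = 2.32e-06). At 39.2 kb the change was -0.94 (SE 0.297, adjusted p = 0.0122) and at 39.7 kb, the strongest Ets1 region, -0.65 (SE 0.221, adjusted p = 0.0231), both per the authors' deposited table. These 2 regions overlap and share reads.

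Fli1, an activator of haematopoietic and endothelial genes that neighbours Ets1 on chromosome 9, had 36 tested regions, with 2 rises (5.56%) and 1 fall (2.78%) per the authors' deposited table. Both shares lie below those over all tested regions, 10.2% risen and 7.99% fallen. All 3 called Fli1 regions lay in its long intron 1. At 11.3 kb the change was 1.67 (SE 0.492, adjusted p = 0.00672) and at 54.5 kb 1.34 (adjusted p = 0.0467), whereas at 41.1 kb it was -0.63 (SE 0.229, adjusted p = 0.037), all per the authors' deposited table. The fall and the rise at 54.5 kb were no longer called when the p-values were adjusted anew over all regions (adjusted p = 0.0501 and 0.063). Fli1 had a median of 0.02 in the authors' deposited table, near that of all regions.

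Elf1, Ets2 and Etv5 had few calls or none, at 1 of 14, 0 of 2 and 0 of 12 tested regions. Over all tested regions 10.2% rose and 7.99% fell, and these genes had too few tested regions to compare with that. The single call at Elf1, an activator of lymphoid and myeloid genes, was a rise of 0.93 at 34.0 kb in intron 2 (SE 0.356, adjusted p = 0.0493, authors' deposited table), which was lost when p-values were adjusted anew (adjusted p = 0.0665). The other 13 tested Elf1 regions ranged from -1.01 to 0.41 in the authors' deposited table. Etv5, of the PEA3 subgroup, had 12 tested regions, and the smallest adjusted p was 0.0858 at 39.4 kb in intron 9 (log2 fold change 0.81, SE 0.344, authors' deposited table). Ets2, a target of Ras and CSF-1 signalling in macrophages, had 2 tested regions, both in intron 2, with -0.55 (SE 0.257, adjusted p = 0.125) at 5.99 kb and -0.14 (adjusted p = 0.769) at 6.33 kb in the authors' deposited table.

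**Figure D3:**
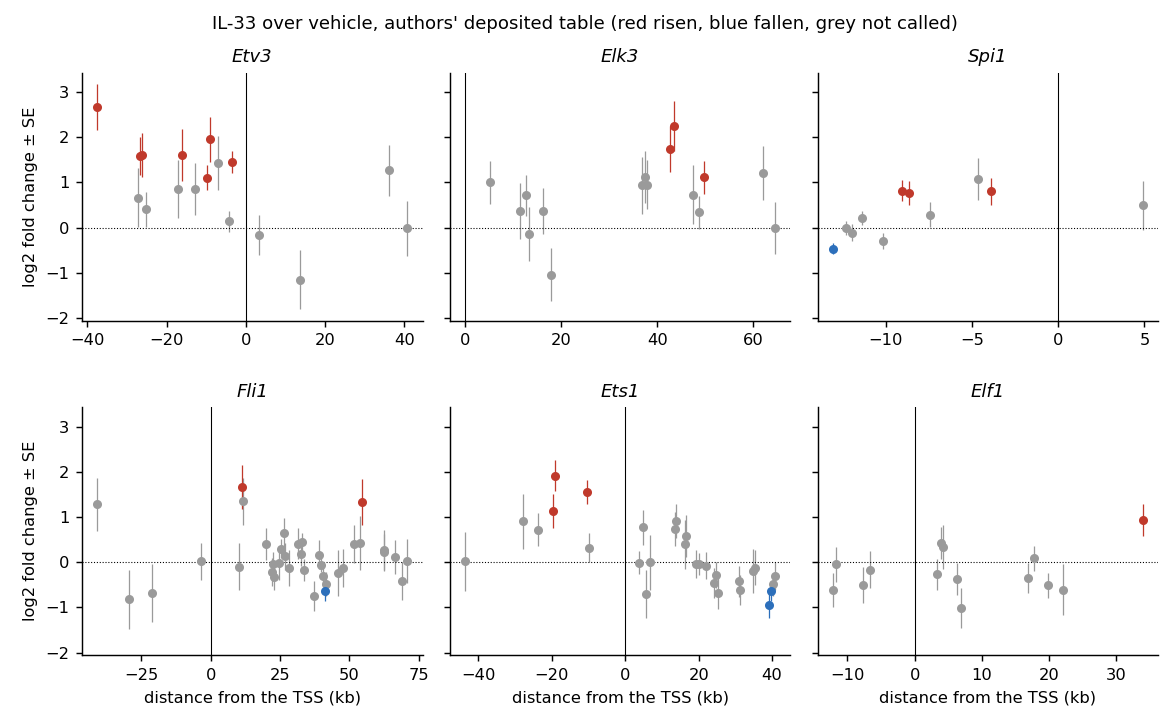
Log2 fold change ± SE (IL-33 over vehicle, authors' deposited table) by distance from the TSS in kb for Etv3, Elk3, Spi1, Fli1, Ets1 and Elf1, with the vertical line at the TSS, red risen, blue fallen and grey not called. The red points of Etv3 and Ets1 lie upstream of the TSS listed by the authors, and the blue point of Spi1 at -13.1 kb lies farther upstream than its 3 red points.

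Other genes of the family and its pathway were counted from lists. Of 17 further ETS genes, 8 had a tested region in the authors' deposited table, with 1 of their 52 regions risen (1.92%) and 2 fallen (3.85%). Elf3 held the rise (1.42, adjusted p = 0.00761, authors' deposited table). Etv1 (-1.01, adjusted p = 0.00544) and Elf2 (-0.69, adjusted p = 0.0256) held the falls listed in the authors' deposited table. Among 14 genes of ETS partners and corepressors, the authors' deposited table has 9 of 141 regions risen (6.38%) and 7 fallen (4.96%). Over all tested regions 10.2% rose and 7.99% fell, above the shares of both lists in either direction. Irf8, the PU.1 partner, had 4 rises and 5 falls of 33 regions (smallest adjusted p at a rise of 1.70), and Runx1 had 4 rises and 1 fall of 45 (smallest adjusted p at a fall of -1.25), in the authors' deposited table. Jun (0.71) and Ep300 (-0.75) had 1 call each in the authors' deposited table.

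Of 18 macrophage genes known as PU.1 targets, 17 had tested regions, of which the authors' deposited table has 29 of 185 risen (15.7%) and 11 fallen (5.95%), with a median of 0.12. Without Cx3cr1, left out after the values were seen, it has 16 of 157 risen (10.2%, the same as over all regions) and 11 fallen (7.01%). Irf8 stands in both lists. By gene, calls were rises alone at 5, falls alone at 3, of both kinds at 2 and absent at 7. Among the smallest adjusted p-values in the authors' deposited table were those at the fractalkine receptor gene Cx3cr1 (13 of 28 regions risen, leading region 1.17), Irf8 and the Fc receptor gene Fcgr1 (1 fall of 5, -1.48).

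Promoter levels were compared per 500 bp, as the mean of a gene's regions within 1000 bp of a TSS. Spi1 was highest at 332 ± 58.1 tags (SD over 8 libraries), followed by Fli1 at 268 ± 50.6, Ets2 at 228 ± 60.1, Etv3 at 190 ± 49.0 and Elk3 at 183 ± 60.6 tags. Below them came Etv6 at 165 ± 34.0, Elf1 at 132 ± 19.2, Ets1 at 87.8 ± 23.3 and Etv5 at 66.8 ± 13.2 tags. Of the 8 steps between neighbours in this order, those from Spi1 to Fli1 and from Elf1 to Ets1 exceeded the larger SD of the pair, and the other 6 did not. The median over 13158 genes was 34.6 tags, with quartiles of 7.44 and 82.5 tags, so Etv5 lay between the median and the upper quartile and the other 8 above the upper quartile. Etv6, with the most rises, stood sixth in promoter level. With the single region nearest to the TSS, Ets2 (273 tags over 8 libraries) and Fli1 (264 tags) stood above Spi1 (223 tags). At its promoter Etv6 had 180, 138, 135 and 125 tags in female mice 3, 4, 7 and 8, and 215, 144, 201 and 186 tags in male mice 1, 2, 5 and 6, and the sexes overlapped.

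**Figure D4:**
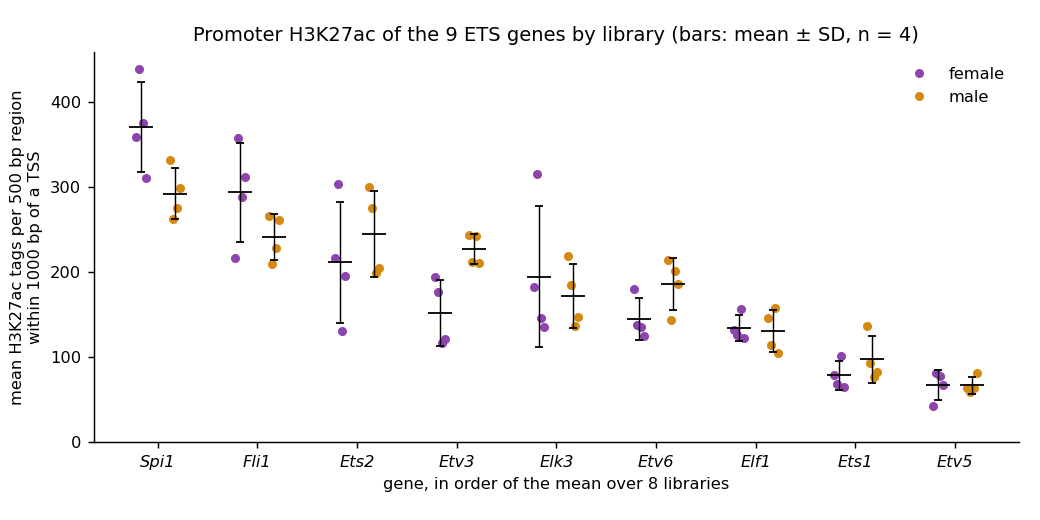
Promoter H3K27ac of the 9 ETS genes as mean tags per 500 bp region within 1000 bp of a TSS; each point is a library, female left of male, with mean ± SD (n = 4 each). Spi1 is highest and Etv5 lowest, and female and male points overlap for every gene except Etv3.

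The strongest region of a gene was not always at its start. For Fli1, Elk3, Elf1, Ets2 and Etv3 it lay within 1000 bp of a TSS, with 558 ± 76.9 tags in female and 439 ± 47.8 tags in male libraries at Fli1 (0.511 kb), and 447 ± 132 tags in female and 360 ± 83.0 tags in male libraries at Elk3 (0.922 kb). For Spi1, Etv6, Ets1 and Etv5 it lay outside. At Etv5 it was the region at -6.1 kb, with 366 ± 38.2 tags in female and 272 ± 66.0 tags in male libraries (SD, n = 4 each), which was not called for IL-33 (-0.30, adjusted p = 0.189, authors' deposited table). The regions nearest to the TSS held 229 ± 52.9 tags in female and 218 ± 34.3 tags in male libraries at Spi1, 289 ± 91.1 and 240 ± 39.8 tags in the same order at Fli1, 229 ± 92.3 and 316 ± 63.8 tags at Ets2, 116 ± 3.59 and 159 ± 39.6 tags at Etv6, and 102 ± 19.0 and 133 ± 43.7 tags at Ets1.

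Between the sexes, none of the 208 ETS regions with a mean of at least 10 tags passed an adjusted p of 0.05 (limma on log2(tags + 1), Benjamini-Hochberg over 53348 regions), where 1.81% of all regions were lower and 0.157% higher in female (1.97% either way). At an unadjusted p under 0.05 there were 28 ETS regions (13.5%, against 12.8% of all regions), 24 higher and 4 lower in female. The same split over all regions was not counted. After TMM rescaling 20 ETS regions had such a p. Counts on whole reads gave 1 ETS call with edgeR and 4 with DESeq2, all lower in female. Over all 53348 regions edgeR called 1465 lower and 51 higher in female, and DESeq2 1873 lower and 95 higher. Sex cannot be told apart from library preparation, since male and female libraries carry different header dates and index types, and the spread between mice includes any effect of IL-33. Over all regions the median female minus male difference was 0.22 in log2 with the deposited scaling and -0.03 after TMM rescaling. Over the ETS regions it was 0.29 with the deposited scaling. Sizes and directions are best read relative to that shift. Missing the threshold does not show that female and male levels were alike.

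The smallest adjusted p was at Fli1, 33.1 kb into intron 1 (chr9:32508122-32508622). It had 244, 348, 240 and 190 tags in female mice 3, 4, 7 and 8, and 161, 155, 120 and 116 tags in male mice 1, 2, 5 and 6. The sexes did not overlap, with a log2 difference of 0.87 (SE 0.238, limma adjusted p = 0.0995). At Etv6 it was the 117.0 kb region, not called for IL-33, with 270, 322, 259 and 329 tags in female and 223, 206, 168 and 147 tags in male mice (0.67, SE 0.209, limma adjusted p = 0.159). There too the sexes did not overlap, unlike at the 135.8 kb region (0.43, SE 0.737, limma adjusted p = 0.857).

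At Elf1, Ets1, Etv5, Ets2 and Spi1 the lowest adjusted p also stood at a region with the higher mean in female. Elf1 at 6.28 kb had 65.7 ± 25.4 tags in female and 30.6 ± 5.53 tags in male libraries (1.02, SE 0.353, limma adjusted p = 0.22). Ets1 at 20.2 kb had 133 ± 7.47 tags in female and 79.7 ± 14.5 tags in male libraries (0.75, SE 0.241, limma adjusted p = 0.178). Etv5 at 39.4 kb had 90.0 ± 42.4 and 40.1 ± 15.03 tags in the same order (1.10, limma adjusted p = 0.234), Ets2 at 6.33 kb 152 ± 33.9 and 89.9 ± 27.1 tags (0.77, limma adjusted p = 0.242), and Spi1 at 0.54 kb 513 ± 94.9 and 367 ± 63.8 tags (0.48, limma adjusted p = 0.308). None of these passed the threshold. After TMM rescaling the difference was smaller, at 0.77 for the Elf1, 0.49 for the Ets1, 0.515 for the Ets2 and 0.23 for the Spi1 region.

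All 4 ETS regions lower in female at an unadjusted p under 0.05 were among the 23 promoter regions. Of these 23, 6 had such a p (26.1%), 4 lower and 2 higher in female, against 19.9% in either direction over all tested regions within 1000 bp of a TSS, where 5.48% were called lower in female. Elf1 has 2 promoters in the files, and they differed in sequence and in values. The upstream one, at -217 bp (chr14), averaged 73.4 ± 12.2 tags in female and 133 ± 42.2 tags in male libraries (SD, n = 4 each), a log2 difference of -0.80 (SE 0.288, limma adjusted p = 0.241). The internal one, at -20 bp, averaged 217 ± 30.6 tags in female and 197 ± 31.1 tags in male libraries (0.14, SE 0.209, limma adjusted p = 0.827). At Elk3 the region at 138 bp had 35.2, 58.1, 39.0 and 18.6 tags in female mice 3, 4, 7 and 8, and 134, 61.9, 80.7 and 89.1 tags in male mice 1, 2, 5 and 6. The sexes did not overlap there (-1.30, SE 0.383, limma adjusted p = 0.13), and this region was called after TMM rescaling (adjusted p = 0.0343) and by edgeR and DESeq2. Etv5 at -156 bp averaged 25.1 ± 14.5 tags in female and 60.9 ± 13.2 tags in male libraries (-1.53, SE 0.55, limma adjusted p = 0.241), and Etv3 at -7 bp averaged 152 ± 38.9 tags in female and 227 ± 18.1 tags in male libraries (-0.61, SE 0.23, limma adjusted p = 0.27). A second Etv5 promoter, at -167 bp, had 17.4 tags in female and 19.2 tags in male libraries (-0.12, limma adjusted p = 0.943). Averaged over their 4 regions within 1000 bp of a TSS, neither Elk3 nor Etv5 was lower in female. Elk3 had 195 ± 82.6 tags in female and 172 ± 37.4 tags in male libraries, and Etv5 66.9 ± 17.7 and 66.7 ± 9.78 tags.

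**Figure D5:**
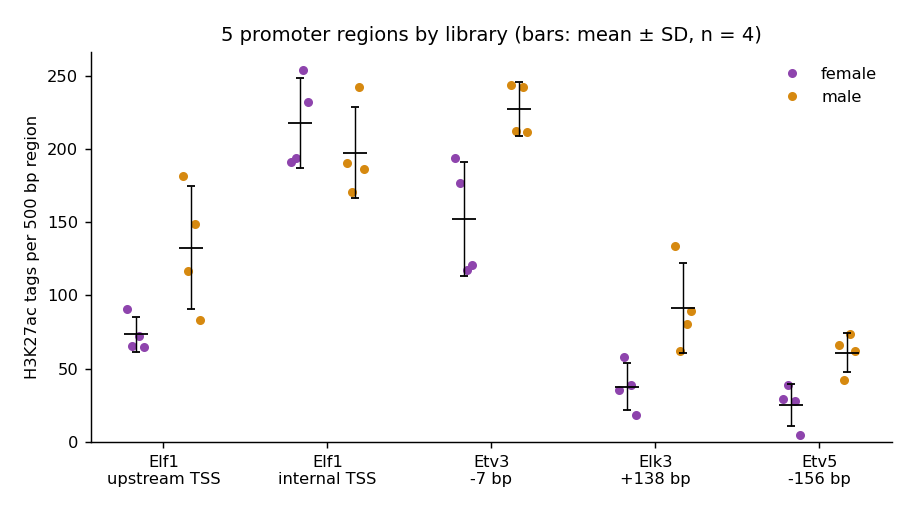
H3K27ac tags per 500 bp region in each library at 5 promoter regions, female left of male, with mean ± SD (n = 4 each). They are the upstream and internal promoters of Elf1 and 1 region each of Etv3 (-7 bp), Elk3 (138 bp) and Etv5 (-156 bp). Female values lie below male values at these regions of Etv3, Elk3 and Etv5, whereas the sexes overlap at both Elf1 promoters.

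The bases before these start sites show how the promoters differ. RefSeq sequences (GRCm38.p6) of the 250 bases upstream of the TSS were found for 8 promoters of 6 of the genes (Etv3, Etv6, Elk3, Elf1, Etv5 and Ets2), and 4 are printed 5′ to 3′: both Elf1 promoters, chr14:79480944-79481193 and chr14:79515424-79515673 on the plus strand, Elk3, chr10:93311160-93311409 on the minus strand, and Etv5, chr16:22439571-22439820 on the minus strand. Capitals mark matches on either strand to a kappaB-type GGGNNNNNCC or an AP-1 TGANTCA.
Elf1 upstream: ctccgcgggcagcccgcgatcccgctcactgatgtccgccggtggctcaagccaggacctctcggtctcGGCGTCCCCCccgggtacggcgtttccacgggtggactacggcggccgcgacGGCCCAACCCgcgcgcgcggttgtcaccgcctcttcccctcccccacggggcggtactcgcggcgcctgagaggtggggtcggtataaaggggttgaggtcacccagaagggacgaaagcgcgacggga
Elf1 internal: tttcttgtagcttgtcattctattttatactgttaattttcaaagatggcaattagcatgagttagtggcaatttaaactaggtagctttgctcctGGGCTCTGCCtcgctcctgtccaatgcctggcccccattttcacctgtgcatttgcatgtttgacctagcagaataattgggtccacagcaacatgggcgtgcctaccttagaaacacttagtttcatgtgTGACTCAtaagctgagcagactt
Elk3: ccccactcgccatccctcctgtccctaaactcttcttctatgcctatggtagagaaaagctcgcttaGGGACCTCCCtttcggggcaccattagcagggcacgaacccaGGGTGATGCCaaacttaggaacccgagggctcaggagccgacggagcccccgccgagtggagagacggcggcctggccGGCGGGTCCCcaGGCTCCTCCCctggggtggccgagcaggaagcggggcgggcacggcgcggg
Etv5: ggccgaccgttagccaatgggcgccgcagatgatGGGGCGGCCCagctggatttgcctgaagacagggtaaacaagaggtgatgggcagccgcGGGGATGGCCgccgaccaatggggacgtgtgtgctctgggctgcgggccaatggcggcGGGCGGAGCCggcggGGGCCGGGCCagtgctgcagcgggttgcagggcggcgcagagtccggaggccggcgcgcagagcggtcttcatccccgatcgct
The upstream Elf1 promoter has 71.6% GC and 35 CpG, the internal one 43.2% GC and 2 CpG, Elk3 67.2% GC and Etv5 71.2% GC. Over 9918 tested promoters the median female minus male log2 difference was 0.13 in promoters of 26.4 to 56.8% GC, -0.03 in those of 57.2 to 65.6% and -0.48 in those of 66 to 91.6%; the part of GC in the ETS values was not tested. The kappaB-type letters were in 6 of the 8 promoters and in 45.8% of 32851 promoters of this length, and the AP-1 letters in 1 of the 8, the internal Elf1 promoter, and in 6.75% of all. The ETS letters CCGGAA (12.03% of all promoters) and GAGGAA (23.3%) were in 0 of the 8 windows on either strand. Only these forms of the GGAA core were counted. GGAA with other neighbours does occur, as in the caggaag of the printed Elk3 letters, and was not counted.

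Over the 8 libraries, the log2 summed tags of Etv6 were most like those of Gm3716 (Pearson r 0.998), E230013L22Rik (0.995) and Hivep2 (0.995) among 2877 genes with at least 10 regions. The median r over these genes was 0.23 and the 95th percentile 0.955, so many other genes were nearly as like. Spi1 was most like Gpatch2l (0.988), Itpr2 (0.985) and Btg2 (0.984), with a median of 0.49 and a 95th percentile of 0.918. The libraries share depth and preparation, so these values are a description. Of the genes like Etv6, Gm3716 had 11 risen of 24 tested regions, E230013L22Rik 11 of 14 and Hivep2 5 of 28, with no fall, in the authors' deposited table. Of those like Spi1, Gpatch2l had 0 risen of 4, Itpr2 3 of 17 and Btg2 2 of 12, the last 2 with 1 fall each. Over all tested regions 10.2% rose and 7.99% fell. Likeness and calls come from the same experiment, so shared rises are no independent evidence.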

How the data were processed

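H3K27ac ChIP-seq was deposited for 8 mice (4 female, 4 male), with inputs of the 4 males that have no column in the tables and were not analysed here. Reads were processed with Bowtie2 and HOMER on mm10 (GRCm38), per the submitters' processing notes, which give no versions. Per the file headers, the first table holds a normalised signal, HOMER tags per 500 bp scaled by the authors to 10000000 tags per library, and dividing by the header's factor gave whole reads for 100% of values within 0.01 of a read. The authors' deposited table for IL-33 against vehicle gives log2 fold changes and log2 group values, scores (mean level, standard error, test statistic), p-values and adjusted p-values; its tool and the mice in each group are not stated in it. Where a TSS is given, its regions lie at least 3001 bp away.

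Regions were joined by ID. IL-33 calls are those of the authors' deposited table at an adjusted p under 0.05. Sexes were compared with limma 3.58.1 (trend, robust) in R 4.3.3 on log2(tags + 1) over 53348 regions with a mean of at least 10 tags, adjusted by Benjamini-Hochberg; edgeR 4.0.16 and DESeq2 1.42.0 on whole reads, other pseudocounts, filters and scalings and single libraries left out were alternatives. The fit was tested on simulated data. Promoter letters came from RefSeq (GRCm38.p6), which also gave the introns' host genes. For each gene the text names the region nearest to the TSS, the strongest region, the risen and fallen regions with the smallest adjusted p and largest change, and the region with the smallest adjusted p between sexes; neighbours of these were named after their values were seen. The genes and lists were chosen with earlier results of these data known. The values of 1 listed gene are not reported here. Intervals and p-values over libraries rest on 1 mouse per library, and depth limits weak regions, since 1 female read is worth 2.42 to 4.64 tags.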

Additional observations from a re-analysis of the deposited data

Results flagged for a closer look

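Among 86 sets of 4 libraries examined for a single value far from the others, 1 was found, and chance gives about 1 in 20. At the Ets2 region 5992 bp from the TSS, male mouse 2 had 44.67 tags, whereas the other 3 male mice had 80.8 to 85.3 tags. This region had no call in either comparison.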

How the results depend on the processing

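The count of risen ETS regions, 47, was 29 at an adjusted p under 0.01 and 30 within 100000 bp of the TSS, where 17 of the 28 Etv6 rises drop out; it stayed between 36 and 47 under the other 4 alternatives. Under each alternative the share risen exceeded that of all regions, which was 6.86 to 12.03%. The 4 falls became 1 at an adjusted p under 0.01 and 0 at a log2 size of at least 1, and 3 or 4 otherwise. The rises at Spi1 became 1 at an adjusted p under 0.01 and 0 at a log2 size of 1. Adjusting p-values anew over all regions ended 6 calls: 2 rises at Etv6, 1 rise each at Spi1, Elf1 and Fli1, and the fall at Fli1. No library could be left out of the IL-33 comparison, which exists only as the authors' deposited table.

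The 0 ETS regions called between sexes stayed 0 under other pseudocounts, filters and every left-out library (0 to 0). Of the 208 tested, 2 were lower in female after TMM rescaling and 2 after quantile normalisation (Elk3 at 138 bp and Etv3 at -7 bp in both). With edgeR 1 was lower (Elk3), and with DESeq2 4 were (Elk3 at 138 bp, Etv3 at -7 bp, Etv5 at -156 bp and Elf1 at -217 bp). Over all 53348 tested regions, 1465 were lower in female after TMM rescaling and 1560 after quantile normalisation. With edgeR 1465 of all regions were lower, and with DESeq2 1873. Higher calls at ETS regions stayed 0 throughout. Small differences changed sign: Spi1 at 77 bp was -0.20 after TMM rescaling, -0.19 after quantile normalisation, -0.16 with edgeR, -0.16 with DESeq2, and -0.082 (without female mouse 7) to 0.17 with single libraries left out, with -0.038 without male mouse 2. Elf1 at -20 bp was -0.11 (TMM), -0.11 (quantile), -0.10 (edgeR) and -0.11 (DESeq2), and Fli1 at 42 bp -0.030 (TMM) and -0.058 (quantile). The cause was not tested. Of 108 promoter levels recomputed, 12 moved by more than 1 SD, 11 of them with the single region nearest to the TSS. No paired analysis was possible because female and male mice share no replicate number.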
